A study of Arabidopsis thaliana with 18 samples.

Results

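The plastid genome of Arabidopsis thaliana carries a small set of protein-coding genes, and 63 of them were measured here by a probe set that the platform annotation assigns to a single gene. They were chosen by their locus tag in the TAIR10.1 gene table, out of 16411 loci with a single-gene probe set and 85 protein-coding plastid loci. Every one of the 63 had 1 such probe set, no 2 of these probe sets held identical values, and 19 probe sets that list a plastid gene among several genes were left out. By role, 39 genes encode photosynthetic proteins (5 psa, 13 psb, 6 pet, 4 atp and 10 ndh genes, and rbcL), 18 serve gene expression (4 rpo, 7 rps and 6 rpl genes, and matK) and 6 have other roles (accD, ccsA, cemA, clpP, ycf3 and ycf4). Coordinates are not given, since the build behind the array's probe sets was not given in the sources used here. Whether copies of plastid DNA elsewhere in the genome add to these probe sets was not tested.

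The samples were cotyledons of 6-day-old seedlings grown in liquid medium under continuous light. In VISUAL culture, mesophyll cells of excised cotyledons turn into xylem and phloem cells. The medium contained 10 µM bikinin, which blocks GSK3-like kinases, with 2,4-D (an auxin, 1.25 mg/L) and kinetin (a cytokinin, 0.25 mg/L). The 6 groups of 3 arrays each were WT (Col) cotyledons after 72 h of VISUAL culture and uncultured WT (Col) cotyledons (0 h), bes1-1 cotyledons at 72 h and at 0 h, and bes1-3 cotyledons at 72 h and at 0 h. Both mutants are T-DNA insertion lines of BES1, a transcription factor of brassinosteroid signalling, and BES1 itself was not analysed here. The 72 h groups differ from the 0 h groups in culture, hormones and time together, and these cannot be told apart. Since no label states whether the replicates were separate plants or cultures, p-values here measure the spread between samples, which may be technical.

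Plastid genes are transcribed by a bacterial-type RNA polymerase, whose core subunits the plastid itself encodes in the rpo genes, and by phage-type polymerases encoded in the nucleus. Photosynthesis genes are transcribed mainly by the bacterial-type enzyme in green tissue, while the rpoB transcription unit and accD are known for their phage-type promoters. Most plastid genes are transcribed in groups and cut into shorter RNAs afterwards, and the photosynthetic complexes and the plastid ribosome are each built from plastid-encoded and nuclear-encoded subunits together. Plastid transcripts mostly lack the stable poly(A) tails from which array labelling is commonly primed. The labels name the GeneChip One-Cycle kit, which primes labelling at poly(A) tails. A change in the amount of a plastid transcript and a change in the share of it that carries a tail cannot be told apart here, so signals are compared between samples and not read as amounts.

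The plastid-encoded probe sets were among the brightest of the arrays. Their mean log2 signal over all 18 arrays lay between 10.54 for psbM and 13.87 for atpH, while the highest value of any probe set in the table was 14.19. On the 9 arrays of 72 h, 32 to 43 of the 63 reached the top 1% of the array's probe sets, against 55 to 58 on the 9 arrays of 0 h. Together they held 2.66% to 3.02% of the summed unlogged signal at 72 h and 3.76% to 4.2% at 0 h, so no 72 h array overlapped with a 0 h array in this share. In whole cotyledons a lower signal can come from fewer cells of a type or from less RNA per cell, and the 2 cannot be told apart.

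In the WT induction, the comparison of WT cotyledons at 72 h with those at 0 h, plastid-encoded genes fell. Of the 63, limma called 24 lower and 0 higher at a Benjamini-Hochberg adjusted p below 0.05, where 10.8% of all 38408 probe sets were called lower and 8.7% higher. The median log2 fold change of the 63 genes was -0.61, beside -0.03 for all probe sets. Whether the replicate numbers pair the samples was not established, and with the replicate number as a block limma called 54 of the 63 lower, against 20.8% of all probe sets. The 3 arrays of 72 h all lay below the 3 of 0 h for 45 of the 63 genes, where this held for 16.1% of all probe sets, and 61 of the 63 fold changes were negative. Bright probe sets fell more often than others: of the 585 with a WT mean of at least 12 at 0 h, plastid-encoded ones included, 206 (35.2%) were called lower, with a median of -0.24. With the replicate block 275 of these 585 (47%) were called lower.

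**Figure D1:**
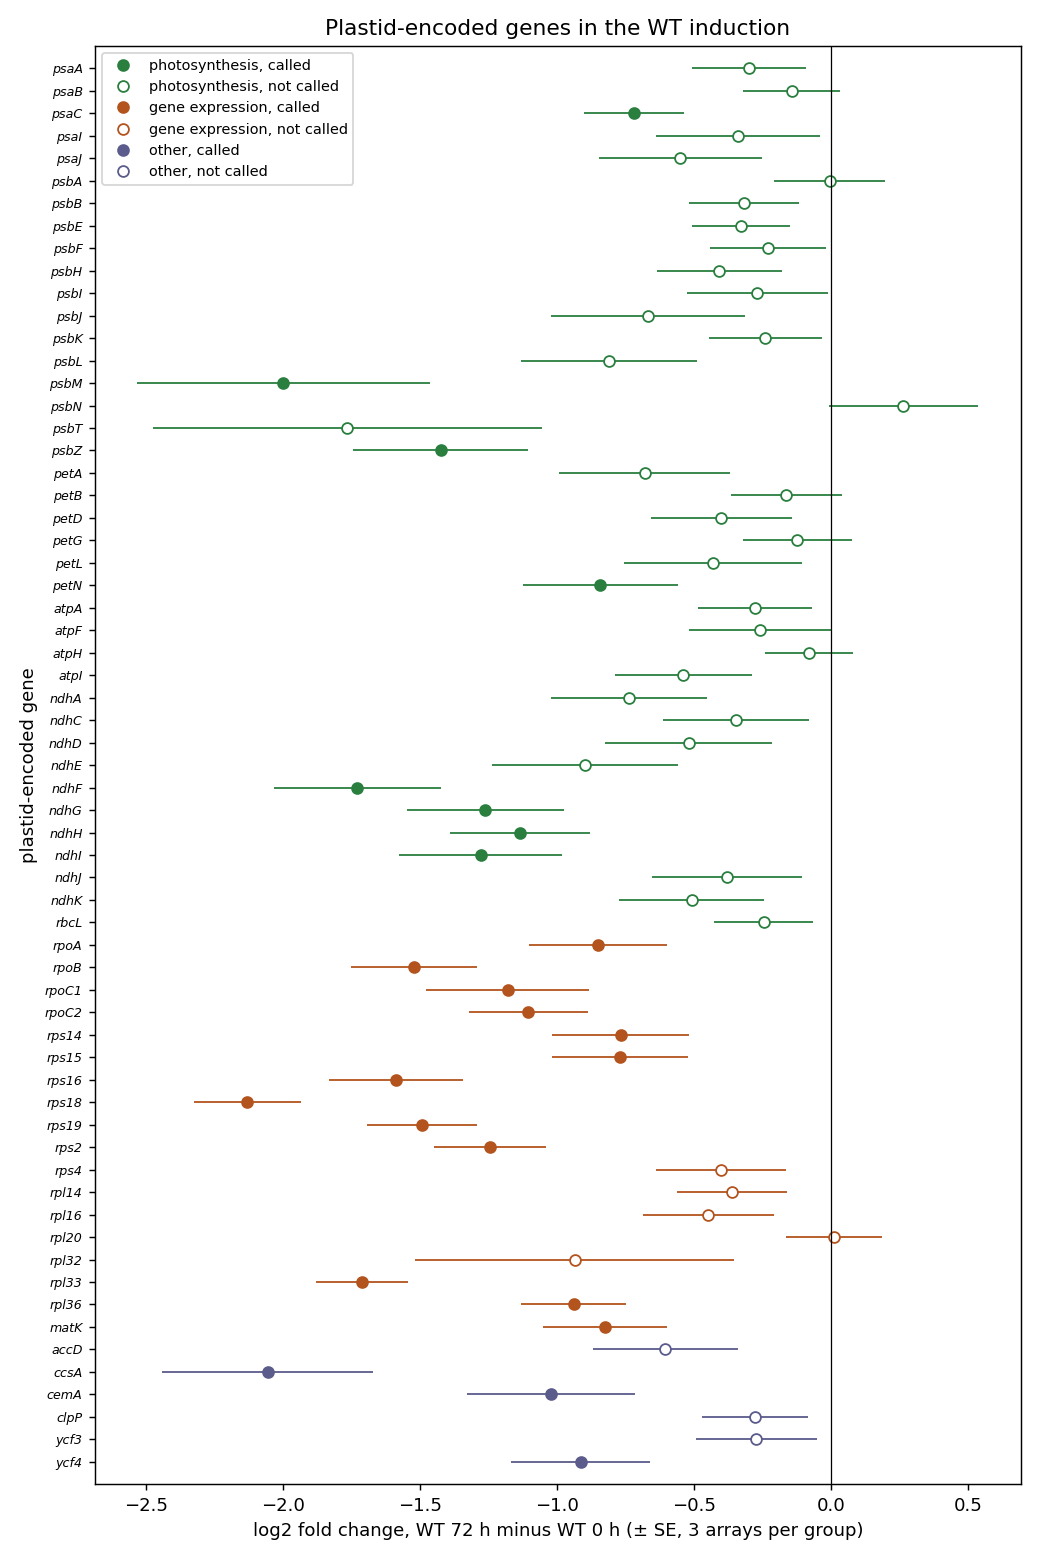
Log2 fold change of each of the 63 plastid-encoded genes in the WT induction (WT 72 h minus WT 0 h, horizontal axis, with the standard error of the fit), ordered by role and coloured by class; filled points were called by limma. Of the photosynthesis genes 8 of 39 points are filled, against 13 of 18 of the gene expression genes, which reach -2.13 (rps18), and psbA and rpl20 stand near 0.

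Photosynthesis genes held the smaller share of calls. Limma called 8 of the 39 photosynthesis genes lower, with a median log2 fold change of -0.41, against 13 of the 18 gene expression genes, with a median of -0.94. With the replicate block the counts were 31 of 39 photosynthesis genes and 17 of 18 gene expression genes. Of the genes with other roles 3 of 6 were called lower, with a median of -0.76, and 6 of 6 with the block. Arrays of the 2 times did not overlap for 23 of 39 photosynthesis genes, 17 of 18 gene expression genes and 5 of 6 others. Of all probe sets, 10.8% were called lower, 20.8% with the replicate block, and 16.1% lay lower without overlap. Among the 585 bright probe sets 35.2% were called lower, and 47% with the block.

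All 4 rpo genes, which encode the core of the bacterial-type RNA polymerase, fell in the WT induction. The gene of the beta subunit, rpoB, had log2 signals of 10.90, 11.21 and 11.19 at 72 h, against 12.41, 12.69 and 12.76 at 0 h. The groups lay more than 1 log2 unit apart, and the fall was nearly the same within each replicate number, at -1.52, -1.48 and -1.57. The log2 fold change of rpoB was -1.52 ± 0.23 (SE; limma adjusted p = 1.36e-04), a 2.87-fold lower signal. The gene of the beta'' subunit, rpoC2, had 11.59, 11.91 and 11.79 at 72 h, against 12.62, 13.02 and 12.97 at 0 h, and changed by -1.10 ± 0.22 (limma adjusted p = 0.00134). The gene of the beta' subunit, rpoC1, changed by -1.18 ± 0.30 (0.00862) and rpoA, the gene of the alpha subunit, by -0.85 ± 0.25 (0.0243), with signals of 11.62, 12.09 and 12.28 at 72 h, against 12.62, 12.94 and 12.98 at 0 h. No array of 72 h reached the lowest array of 0 h for any of the 4.

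Ribosomal protein genes of the small subunit fell as well, 6 of 7 by limma and 7 of 7 with the replicate block. Called lower were 10.8% of all probe sets by limma and 20.8% with the block. The gene rps18 had 10.50, 10.14 and 10.34 at 72 h, against 12.34, 12.50 and 12.53 at 0 h. This was the largest fall among the 63 genes, with a log2 fold change of -2.13 ± 0.19 (limma adjusted p = 1.0e-06) and a 4.38-fold lower signal, and replicate 1 was the highest of the 3 arrays at 72 h. The gene rps16 had 9.80, 10.25 and 10.17 at 72 h, against 11.52, 11.75 and 11.71 at 0 h, and fell by 1.59 ± 0.24 on the log2 scale. The gene rps19 had 11.46, 11.57 and 11.65 at 72 h, against 12.88, 13.10 and 13.17 at 0 h, and fell by 1.49 ± 0.20 (limma adjusted p = 4.2e-05). For both genes the groups were separated by more than 1 log2 unit. The gene rps2 had 11.20, 11.58 and 11.64 at 72 h, against 12.53, 12.82 and 12.80 at 0 h, and fell by 1.24 ± 0.20. The calls of rps15 (-0.77 ± 0.25) and rps14 (-0.77 ± 0.25) lay close to the threshold, at limma adjusted p-values of 0.0387 and 0.0414. The gene rps4 was not called, at -0.40 ± 0.24, although its arrays of 12.54, 12.90 and 12.98 at 72 h all lay below those of 13.04, 13.30 and 13.29 at 0 h.

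The large-subunit genes were split. The gene rpl33 had 10.46, 10.33 and 10.43 at 72 h, against 12.04, 12.16 and 12.15 at 0 h, and fell by 1.71 ± 0.17 on the log2 scale (limma adjusted p = 2.17e-06). The gene rpl36 had 11.81, 11.96 and 12.06 at 72 h, against 12.68, 12.95 and 13.02 at 0 h, and fell by 0.94 ± 0.19. These 2 of 6 were called, where 10.8% of all probe sets were called lower, and their groups did not overlap. The gene rpl20 had 13.43, 13.66 and 13.63 at 72 h, against 13.42, 13.62 and 13.65 at 0 h. Its groups lay over each other, at 0.01 ± 0.17, the only gene of the class with a positive value, and that sign turned when arrays were centred on their medians. The genes rpl14 (-0.36 ± 0.20) and rpl16 (-0.45 ± 0.24) were not called, with arrays of 12.92, 13.28 and 13.33 at 72 h, against 13.38, 13.61 and 13.62 at 0 h for rpl14. The signals of rpl16 were 12.42, 12.77 and 12.93 at 72 h, against 13.03, 13.18 and 13.25 at 0 h, so that for both genes the arrays of 72 h were lower without overlap. The gene rpl32 was noisy, with 10.67, 11.78 and 11.96 at 72 h, against 12.11, 12.52 and 12.59 at 0 h, and was not called at -0.94 ± 0.58. With the replicate block limma called each of the 5 genes of the class that it had not called before, except rpl20. Apart from the ribosome, matK, which encodes the plastid's intron maturase, had 12.34, 12.82 and 12.79 at 72 h, against 13.39, 13.53 and 13.52 at 0 h, and fell by 0.83 ± 0.23 (limma adjusted p = 0.0157).

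**Figure D2:**
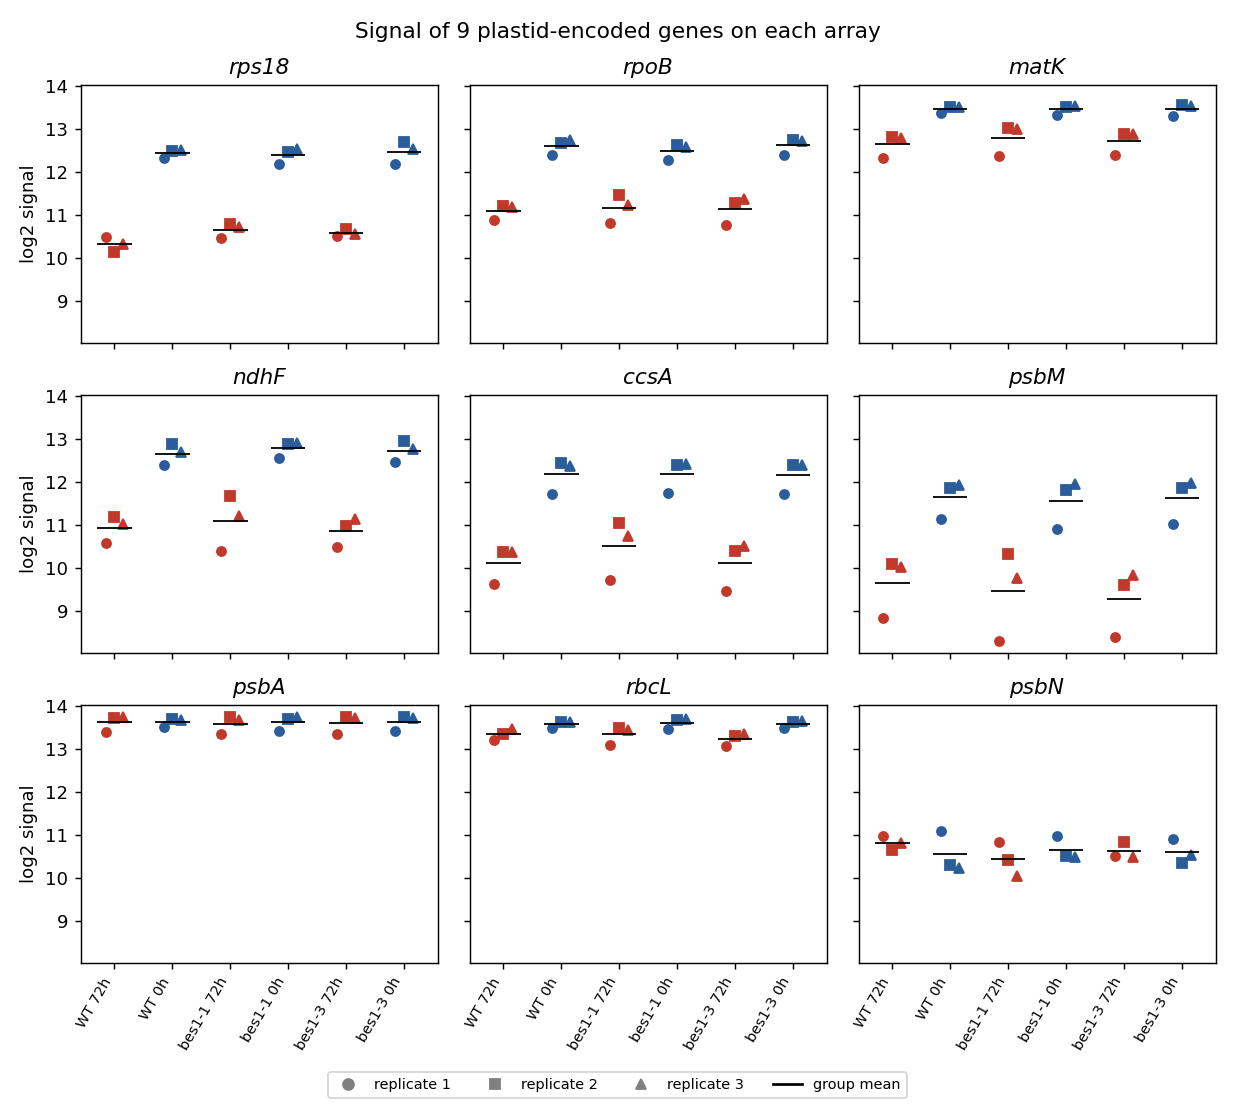
Log2 signal on each array (vertical axis) of 9 plastid-encoded genes in the 6 groups, with 72 h in red and 0 h in blue, marker shapes for replicates 1 to 3 and a line at each group mean. The arrays of 72 h lie below those of 0 h in all 3 genotypes for rps18, rpoB, matK, ndhF, ccsA and psbM, while those of psbA and psbN overlap.

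The ndh genes accounted for 4 of the 8 photosynthesis genes called lower in the WT induction. They encode subunits of the NADH dehydrogenase-like complex, which feeds electrons into cyclic electron flow. These 4 were of 10 measured, and 10 of 10 were called lower with the replicate block, with a median log2 fold change of -0.82. The shares of all probe sets were 10.8% without and 20.8% with the block. The gene ndhF had 10.58, 11.20 and 11.02 at 72 h, against 12.40, 12.89 and 12.70 at 0 h, and fell by 1.73 ± 0.31 (limma adjusted p = 5.48e-04). The gene ndhI had 11.29, 11.87 and 11.77 at 72 h, against 12.61, 13.10 and 13.05 at 0 h, and fell by 1.28 ± 0.30. For both genes every array of 72 h lay below every array of 0 h. The gene ndhG had 11.15, 11.84 and 11.71 at 72 h, against 12.48, 13.04 and 12.96 at 0 h, and fell by 1.26 ± 0.29. The gene ndhH had 11.31, 11.85 and 11.69 at 72 h, against 12.49, 12.94 and 12.82 at 0 h, and fell by 1.13 ± 0.26. The other 6 ndh genes, ndhA, ndhC, ndhD, ndhE, ndhJ and ndhK, ranged from -0.90 (ndhE) to -0.35 (ndhC) and were not called without the block.

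Of 13 psb genes limma called 2 lower (11 with the block) and of 5 psa genes 1 (3 with the block). Of all probe sets, 10.8% were called lower (20.8% with the block), and of the 585 bright ones 35.2%. The psb and psa counts without the block are therefore not read as particular to these genes. The gene psbZ, of a small subunit of photosystem II, had 11.35, 11.98 and 11.90 at 72 h, against 12.89, 13.31 and 13.31 at 0 h, and fell by 1.42 ± 0.32 on the log2 scale (limma adjusted p = 0.00391). The gene psbM, of a further small subunit, had 8.83, 10.09 and 10.02 at 72 h, against 11.14, 11.87 and 11.93 at 0 h, and fell by 2.00 ± 0.53 (limma adjusted p = 0.0128). In both groups replicate 1 of psbM stood well below the other arrays, yet the groups did not overlap. The gene psbT, of another small subunit, shared this pattern, with 10.05 ± 0.79 at 72 h, against 11.81 ± 0.32 at 0 h (SD, n = 3 arrays each), and its value of -1.77 ± 0.71 was not called (limma adjusted p = 0.106, and 0.0017 with the replicate block). The gene psaC, whose protein carries the iron-sulphur clusters on the acceptor side of photosystem I, had 12.41, 12.63 and 12.51 at 72 h, against 13.08, 13.31 and 13.33 at 0 h, and fell by 0.72 ± 0.18 (limma adjusted p = 0.00928).

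For psbA, psaB and rbcL, all of core photosynthetic proteins, the differences were small, unlike that of psaC. The gene psbA, which encodes the D1 reaction-centre protein of photosystem II, had 13.40, 13.72 and 13.76 at 72 h, against 13.52, 13.70 and 13.69 at 0 h. Its groups overlapped, at -0.01 ± 0.20 (limma adjusted p = 0.994), and the sign was positive in replicates 2 and 3. The gene psaB, of a reaction-centre protein of photosystem I, had 13.36, 13.59 and 13.58 at 72 h, against 13.55, 13.69 and 13.72 at 0 h, at -0.14 ± 0.18. The gene rbcL, of the large subunit of Rubisco, had 13.21, 13.37 and 13.47 at 72 h, against 13.50, 13.64 and 13.64 at 0 h. The arrays of rbcL at 72 h all lay lower, by 0.29, 0.27 and 0.18 within replicates 1, 2 and 3, and the log2 fold change of -0.25 ± 0.18 was not called (limma adjusted p = 0.475, and 0.025 with the replicate block). These are differences of probe sets near the top of the measured range, and whether they were limited by the range was not tested.

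Of the other electron transport and ATP synthase genes, petN was the only one called. It encodes a small subunit of the cytochrome b6f complex and had 12.01, 12.68 and 12.48 at 72 h, against 13.05, 13.30 and 13.35 at 0 h, and fell by 0.84 ± 0.28 on the log2 scale (limma adjusted p = 0.0469). The gene petG, of another small subunit of that complex, had 13.24, 13.58 and 13.61 at 72 h, against 13.46, 13.68 and 13.66 at 0 h, at -0.12 ± 0.20. The gene atpH, of the ring-forming subunit of ATP synthase, had 13.73, 13.86 and 13.87 at 72 h, against 13.81, 13.94 and 13.96 at 0 h. Its groups overlapped, at -0.08 ± 0.16. Of the 4 atp genes 0 were called lower by limma without the block (10.8% of all probe sets) and 3 with the block (20.8%). At an unadjusted limma p under 0.05 there was 1. The atp genes ranged from -0.54 (atpI) to -0.08 (atpH).

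The highest value was that of psbN, whose product is known from tobacco as an assembly factor of photosystem II. It is encoded on the strand opposite to its neighbours in the psbB unit. Its signals were 10.97, 10.66 and 10.81 at 72 h, against 11.10, 10.31 and 10.24 at 0 h, the lowest level of the 63 probe sets at 0 h. The groups overlapped, the difference was negative in replicate 1 (-0.13) and positive in replicates 2 and 3 (0.35 and 0.57), and the log2 fold change of 0.26 ± 0.27 was not called (limma adjusted p = 0.67). It was also the gene whose arrays of replicate 1 did not stand lower: its mean of replicate 1 was 0.41 above that of the other replicates, while the median over the 63 genes was -0.45 and that over all probe sets -0.64.

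Of the genes with other roles, ccsA changed most. Its protein acts in the attachment of haem to c-type cytochromes, and its signals were 9.64, 10.37 and 10.37 at 72 h, against 11.72, 12.46 and 12.37 at 0 h. The groups were more than 1 log2 unit apart, and ccsA fell by 2.06 ± 0.39 (limma adjusted p = 9.18e-04). The gene cemA, of an inner envelope protein, had 11.49, 12.07 and 12.04 at 72 h, against 12.65, 13.00 and 13.02 at 0 h, and fell by 1.02 ± 0.31. The gene ycf4, of a photosystem I assembly factor, had 12.04, 12.42 and 12.42 at 72 h, against 13.03, 13.34 and 13.26 at 0 h, and fell by 0.91 ± 0.25. A second assembly factor of photosystem I, ycf3, stood at -0.27 ± 0.22, with 12.62, 13.08 and 13.08 at 72 h, against 12.98, 13.31 and 13.31 at 0 h, and was not called. The protease gene clpP had 12.70, 13.01 and 13.05 at 72 h, against 13.08, 13.24 and 13.28 at 0 h. The acetyl-CoA carboxylase gene accD had 11.80, 12.25 and 12.31 at 72 h, against 12.44, 12.91 and 12.84 at 0 h. Neither was called, at -0.28 ± 0.19 for clpP and -0.61 ± 0.26 for accD, although the arrays of 72 h lay below those of 0 h for both.

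The size of the fall went with the signal at 0 h. Across the 63 genes the log2 fold change in WT correlated with the mean signal at 0 h at Spearman's rho = 0.73 (Pearson's r = 0.55), so the brightest probe sets changed least. The same was seen among the 39 photosynthesis genes (rho = 0.68, r = 0.41) and the 18 gene expression genes (rho = 0.84, r = 0.76). These points are genes of 1 genome, share transcripts and arrays, and the signal at 0 h enters both axes, so the values are descriptions. Gene length, which ranged from 90 to 4131 bases, showed no such relation (rho = 0.02, r = 0.01).

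Photosynthesis genes were the brighter class, and within ranges of equal signal the class medians were closer to each other. Between 12.5 and 13 at 0 h, 4 of 9 photosynthesis genes were called lower in WT with a median of -0.81, and 6 of 6 gene expression genes with a median of -1.02. Between 13 and 13.5, 3 of 17 photosynthesis genes were called with a median of -0.43, and 3 of 5 gene expression genes with a median of -0.77. Between 13.5 and 14, 0 of 10 photosynthesis genes and 0 of 2 gene expression genes were called, with medians of -0.20 and -0.18. Between 12 and 12.5 lay 4 gene expression genes, 3 of them called, with a median of -1.45, and no photosynthesis gene. All probe sets between 12.5 and 13, of which there were 169, had a median of -0.81, the 111 between 13 and 13.5 had -0.40 and the 41 between 13.5 and 14 had -0.01. Between 11 and 12, psbM and psbT had a median of -1.88 in WT and rps16 had -1.59. In bes1-1 the photosynthesis median was -0.94 between 12.5 and 13, against -0.84 for gene expression genes. Between 13 and 13.5 these were -0.455 and -0.531. In bes1-3 they were -1.026 and -1.025 between 12.5 and 13, and -0.52 and -0.72 between 13 and 13.5. The order of the classes was thus not the same in every range and genotype. How much of the difference between the classes goes with the signal alone was not tested.

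**Figure D3:**
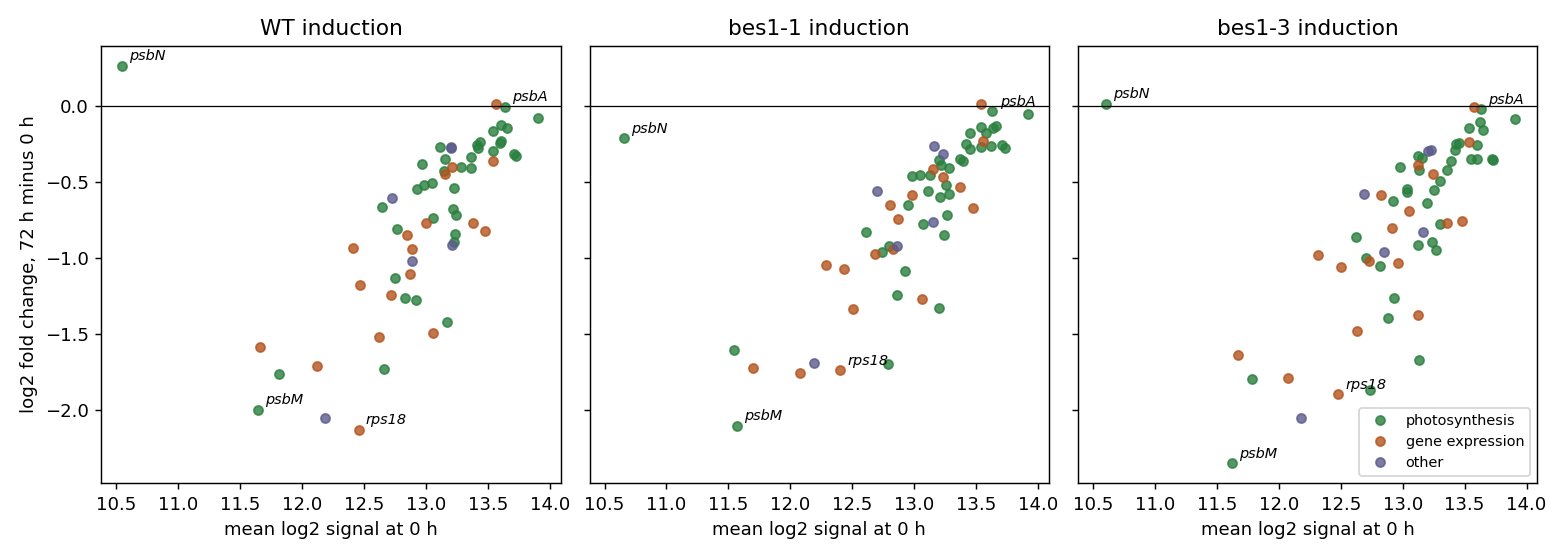
Log2 fold change of the 63 plastid-encoded genes (vertical axis, 72 h minus 0 h) against their mean log2 signal at 0 h (horizontal axis) in the WT, bes1-1 and bes1-3 inductions, 1 point per gene, coloured by class. In all 3 panels the points rise toward 0 with the signal (rho = 0.73, 0.80 and 0.73), and psbN lies alone at the left.

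Measured on single arrays, the distance between the classes was wider after culture. The median signal of photosynthesis genes exceeded that of gene expression genes by 0.76, 0.90 and 0.85 log2 units on the WT arrays of 72 h, against 0.30, 0.33 and 0.33 on those of 0 h. In bes1-1 it was 0.57, 0.87 and 0.84 at 72 h, against 0.33, 0.40 and 0.38 at 0 h. In bes1-3 it was 0.57, 0.82 and 0.69 at 72 h, against 0.24, 0.27 and 0.33 at 0 h. No array of 72 h overlapped with an array of 0 h in any genotype; probe sets of different genes are not on a common scale, so only the change of this distance is read. The median fold change of photosynthesis genes exceeded that of gene expression genes by 0.53 in the WT, 0.39 in the bes1-1 and 0.47 in the bes1-3 induction.

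**Figure D4:**
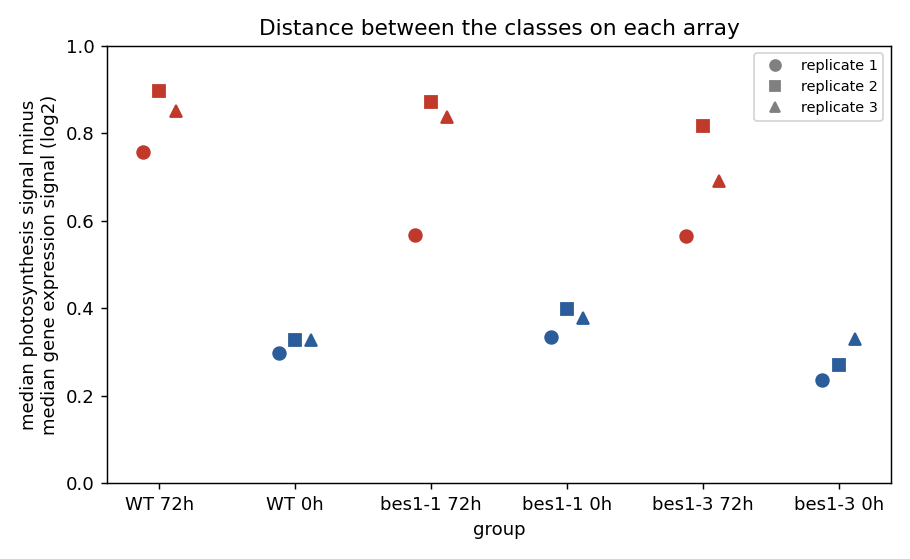
Median log2 signal of the 39 photosynthesis genes minus that of the 18 gene expression genes on each of the 18 arrays (vertical axis), by group, with 72 h in red and 0 h in blue and marker shapes for replicates. The arrays of 72 h lie between 0.57 and 0.90 and those of 0 h between 0.24 and 0.40.

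Among genes that are transcribed together, the estimated fold changes differed, more in some units than in others. In 11 transcription units taken from background knowledge, with 46 genes measured, the 3 genes of the rpoB-rpoC1-rpoC2 unit were all called lower in WT and spanned 0.42 log2 units. In the ndhH to ndhD unit, which also holds psaC, 4 of 7 were called lower, 7 with the replicate block, between -1.28 for ndhI and -0.52 for ndhD. The unit that holds petL, petG, psaJ, rpl33 and rps18 spanned 2.01 log2 units, with petG at -0.12 and rps18 at -2.13. The psbB unit spanned 1.60, with petB at -0.16 and the noisy psbT at -1.77, neither of them called without the block. In the rps2 unit, rps2 fell by 1.24 while atpI, atpH, atpF and atpA stood between -0.54 and -0.08 and were not called. In 3 of the mixed units a ribosomal protein gene had the lowest value: rps18 beside pet and psaJ, rps2 beside atp, and rps14 (-0.77) beside psaA and psaB. These spans compare fold changes between probe sets of unequal signal, and no test of the differences was made. Of all probe sets, 10.8% were called lower in WT, and 20.8% with the block.

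**Figure D5:**
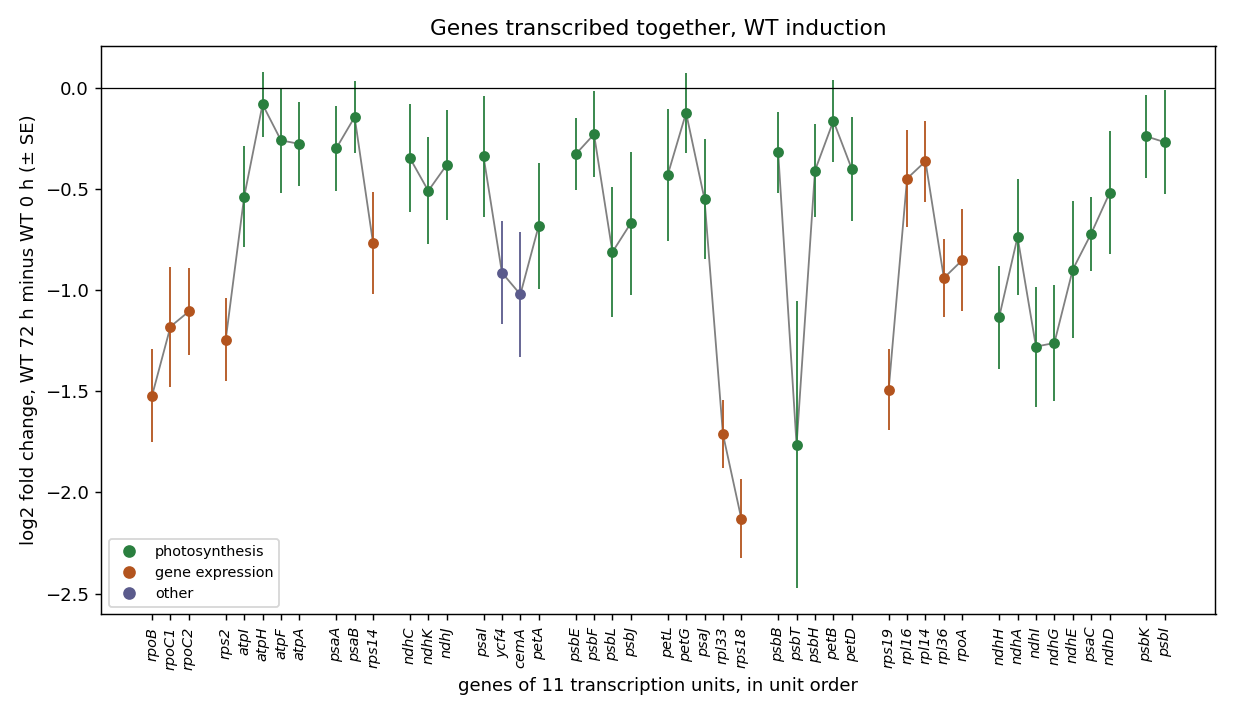
Log2 fold change in the WT induction (vertical axis, WT 72 h minus WT 0 h, with the standard error of the fit) of the genes of 11 plastid transcription units, joined by lines in the order of each unit and coloured by class. The unit ending in rps18 spans 2.01 log2 units, while the 3 rpo genes of the rpoB unit span 0.42.

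The same direction was seen in both mutants. In the bes1-1 induction limma called 20 of the 63 genes lower and 0 higher, against 9.76% of all probe sets called lower and 10.9% higher. In the bes1-3 induction it called 24 lower and 0 higher, against 11.4% lower and 10.3% higher. With the replicate block these counts were 54 (21.9% of all probe sets) in bes1-1 and 56 (21.3%) in bes1-3. Of the 585 probe sets with a WT mean of at least 12 at 0 h, plastid-encoded ones included, 31.8% were called lower in bes1-1 and 34.4% in bes1-3. The counts without the block were thus close to the shares among bright probe sets. With the block those shares were 46.2% in bes1-1 and 45.8% in bes1-3. Photosynthesis genes were called lower in 7 of 39 cases in bes1-1 (median -0.45, 31 with the block) and 10 of 39 in bes1-3 (median -0.42, 33 with the block). Gene expression genes were called lower in 10 of 18 cases in bes1-1 (median -0.84, 17 with the block) and 11 of 18 in bes1-3 (median -0.89, 17 with the block). The medians of all probe sets were 0.03 in both mutants. The photosynthesis count in bes1-1 moved with single arrays. It dropped to 3 when the 72 h array of bes1-1 replicate 1 was left out, and to 4 when the 0 h array of bes1-1 replicate 3 was. It rose to 8 without the 0 h array of bes1-1 replicate 1. Leaving out single arrays gave 6 to 8 photosynthesis genes in WT and 7 to 10 in bes1-3. Groups did not overlap, with 72 h lower, for 29 of 63 genes in bes1-1 (14.7% of all probe sets) and 40 of 63 in bes1-3 (16.3%).

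Single genes showed like values in the 3 genotypes. The gene rpoB had 10.82, 11.46 and 11.23 in bes1-1 at 72 h, against 12.29, 12.63 and 12.60 at 0 h, and fell by 1.34 ± 0.23. In bes1-3 it had 10.77, 11.29 and 11.38 at 72 h, against 12.41, 12.75 and 12.72 at 0 h, and fell by 1.48 ± 0.23. The groups were separate in each mutant. The gene rps18 had 10.47, 10.79 and 10.72 in bes1-1 at 72 h, against 12.20, 12.46 and 12.54 at 0 h, and fell by 1.74 ± 0.19 on the log2 scale. In bes1-3 it had 10.52, 10.67 and 10.56 at 72 h, against 12.20, 12.69 and 12.54 at 0 h, and fell by 1.90 ± 0.19. The lowest value in each mutant was that of psbM, at -2.10 ± 0.53 in bes1-1 (limma adjusted p = 0.00959) and -2.35 ± 0.53 in bes1-3 (limma adjusted p = 0.00381). The gene psbA stood at -0.03 ± 0.20 in bes1-1 and -0.02 ± 0.20 in bes1-3, and psbN at -0.21 ± 0.27 and 0.01 ± 0.27, with overlapping groups in both mutants. The sign of psbN in bes1-3 turned when arrays were centred on their medians.

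Of the 63 genes, 20 were called lower in all 3 inductions and 37 in none. The 20 were rpoB, rpoC1, rpoC2, rps2, rps16, rps18, rps19, rpl33, rpl36 and matK of the gene expression class, ndhF, ndhG, ndhH, ndhI, psaC, psbM and psbZ of the photosynthesis class, and ccsA, cemA and ycf4. With the replicate block 52 genes were called lower in all 3, and 7 in none: atpH, petB, petG, psaB, psbA, psbN and rpl20. The share of all probe sets called lower in all 3 inductions, or in none, was not computed. These counts therefore only describe the members. Calls that hold without any single array of their comparison were 16 of 24 in WT, 12 of 20 in bes1-1 and 16 of 24 in bes1-3.

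No plastid-encoded gene was called between a mutant and WT. In bes1-1 versus WT at 72 h limma called 0 of 63, against 0.844% of all probe sets, with 0 at an unadjusted p under 0.05 and 0 with the replicate block (13.4% of all probe sets). In bes1-3 versus WT at 72 h it called 0 of 63, against 0.13%, again with 0 at an unadjusted p under 0.05 and 0 with the block (7.31%). The standard errors of these differences ran from 0.16 to 0.71. A call needs a difference of several standard errors, so differences above 1 standard error could also be missed here. At 0 h and between the alleles limma called 0 of 63 in each of the 4 comparisons, 0 at an unadjusted p under 0.05 and 0 with the block. The shares of all probe sets were 0.0208% (0.107% with the block) for bes1-1 versus WT at 0 h and 0.00781% (0.0156%) for bes1-3 versus WT at 0 h. They were 0.0104% (1.16%) for bes1-1 versus bes1-3 at 72 h and 0.0703% (0.784%) for bes1-1 versus bes1-3 at 0 h. Both mutants are set against the same WT arrays.

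The lowest unadjusted p among the 63 genes belonged to rps18 in both mutants at 72 h. Its signals of 10.47, 10.79 and 10.72 in bes1-1 and 10.52, 10.67 and 10.56 in bes1-3 stand beside 10.50, 10.14 and 10.34 in WT. The bes1-3 arrays all lay above those of WT, as did 6.57% of all probe sets, while bes1-1 overlapped with WT through replicate 1. The differences were 0.34 ± 0.19 for bes1-1 (limma adjusted p = 0.762, and 0.116 with the replicate block) and 0.26 ± 0.19 for bes1-3 (1.0 and 0.278). For rps2 the difference was 0.24 ± 0.20 in each mutant, with 11.51, 11.89 and 11.72 in bes1-1 and 11.42, 11.84 and 11.87 in bes1-3, beside 11.20, 11.58 and 11.64 in WT. For rps19 it was 0.23 ± 0.20 in bes1-1 and 0.18 ± 0.20 in bes1-3, with means of 11.79 ± 0.29 in bes1-1 and 11.74 ± 0.20 in bes1-3, beside 11.56 ± 0.10 in WT (SD, n = 3 arrays each). In these 2 genes the mutant arrays overlapped with WT.

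Other genes near the top of that order pointed in both directions. The gene psbN had 10.84, 10.43 and 10.06 in bes1-1 at 72 h, against 10.97, 10.66 and 10.81 in WT, at -0.37 ± 0.27. The gene psbZ had 11.02, 11.64 and 11.72 in bes1-3 at 72 h, against 11.35, 11.98 and 11.90 in WT, at -0.29 ± 0.32. The gene rpoA had 11.89, 12.40 and 12.44 in bes1-3, against 11.62, 12.09 and 12.28 in WT, at 0.25 ± 0.25. All 3 overlapped. The gene psaC had 12.43, 12.91 and 12.75 in bes1-1, against 12.41, 12.63 and 12.51 in WT, at 0.18 ± 0.18. Gene expression genes had a median difference of 0.13 in bes1-1 and 0.10 in bes1-3, beside 0.09 and 0.07 for all probe sets, and centring arrays on their medians lowered the bes1-1 value to 0.01.

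The difference in induction, the change in a mutant minus that in WT, was called for 0 of 63 genes in bes1-1 (0.0521% of all probe sets) and 0 of 63 in bes1-3 (0%), with 0 at an unadjusted p under 0.05 in each. With the replicate block the counts were also 0 of 63, against 8.33% of all probe sets in bes1-1 and 1.12% in bes1-3. The value for rps18 was 0.39 ± 0.27 in bes1-1 and 0.23 ± 0.27 in bes1-3. For psbN it was -0.48 ± 0.39 in bes1-1 and -0.25 ± 0.39 in bes1-3, and for rps2 0.27 ± 0.29 and 0.23 ± 0.29. The standard errors ranged from 0.23 to 1.0, which limits what could be seen.

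The measured nuclear-encoded partners of the plastid genes had lower median fold changes. All 8 measured nuclear genes of plastid ribosomal proteins, of 32 listed, were called lower in each genotype, with medians of -2.78 in WT, -2.63 in bes1-1 and -2.85 in bes1-3. Of all probe sets, 10.8% were called lower in WT, 9.76% in bes1-1 and 11.4% in bes1-3. The gene PRPL19B had 5.42, 5.24 and 5.66 in WT at 72 h, against 8.79, 9.27 and 9.41 at 0 h, and fell by 3.72 ± 0.25 (limma adjusted p = 6.94e-08). The gene PRPL5 had 7.09, 7.61 and 7.69 at 72 h, against 10.19, 11.17 and 11.04 at 0 h, and fell by 3.34 ± 0.37. For both genes the groups were more than 2 log2 units apart. Each of the 8 had a lower fold change in WT than any of the 13 plastid-encoded ribosomal protein genes, whose lowest was that of rps18 at -2.13. No test of this difference was made, and the 2 sets of probe sets differ in signal.

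All 10 measured nuclear subunits of the photosynthetic complexes, of 38 listed, were called lower in WT and bes1-3 and 9 of 10 in bes1-1, with medians of -2.39 in WT, -2.43 in bes1-1 and -2.90 in bes1-3. The shares of all probe sets called lower were 10.8% in WT, 9.76% in bes1-1 and 11.4% in bes1-3. The plastid-encoded ndh genes had a median of -0.82 in WT, the psa genes -0.34 and the psb genes -0.33. No test of the nuclear against the plastid-encoded medians was made, and these probe sets also differ in signal. In the NADH dehydrogenase-like complex, the nuclear gene NDHN had 5.80, 6.40 and 6.35 in WT at 72 h, against 9.03, 9.93 and 9.69 at 0 h, and fell by 3.36 ± 0.46. In photosystem I, PSAN had 8.76, 9.05 and 9.05 at 72 h, against 11.23, 11.66 and 11.57 at 0 h, and fell by 2.53 ± 0.40. In photosystem II, PSBW had 10.74, 10.84 and 10.65 at 72 h, against 12.41, 12.70 and 12.60 at 0 h, and fell by 1.83 ± 0.26. In each case the arrays of 72 h lay below those of 0 h.

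Of the nuclear genes that act on plastid transcripts few were measured. RPOTmp, a phage-type RNA polymerase of mitochondria and plastids, had 6.45, 6.78 and 6.96 in WT at 72 h, against 6.29, 6.39 and 6.90 at 0 h, and was not called in WT (0.20 ± 0.26). It rose in bes1-1 by 1.05 ± 0.26 (limma adjusted p = 0.00813) and stood at 0.55 ± 0.26 in bes1-3 (limma adjusted p = 0.171, and 0.00803 with the replicate block, which calls it). Against WT at 72 h RPOTmp stood at 0.54 ± 0.26 in bes1-1 (limma adjusted p = 0.612, and 0.0304 with the replicate block). The bes1-1 difference in induction was 0.85 ± 0.37 (limma adjusted p = 0.66, and 0.0271 with the block). CP29B, an RNA-binding protein of the chloroplast, was called lower in all 3 genotypes, and in WT it fell by 1.39 ± 0.36. None of the 12 listed proteins associated with the bacterial-type polymerase was measured.

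Markers of other cell types moved in the same inductions. The 4 measured light-harvesting genes of mesophyll, of 21 listed, had a log2 summed signal of 10.89 to 11.63 in WT at 72 h, against 12.39 to 13.21 at 0 h, with 2 of 4 called lower in WT. The 3 measured xylem genes, of 10 listed, had 11.94 to 12.79 at 72 h, against 7.91 to 8.69 at 0 h, and 3 of 3 were called higher; the 2 measured procambium genes, of 5 listed, had 10.82 to 11.59, against 8.16 to 9.37, and 2 of 2 were called higher. The 3 measured phloem genes, of 7 listed, had 8.11 to 8.85, against 11.10 to 12.14, a sum carried at 0 h by SWEET11, while CLE45 and OPS were called higher; no listed epidermis gene was measured. Of all probe sets, 10.8% were called lower and 8.7% higher in the WT induction. The part of a change in cell types in the fall of the plastid-encoded genes was not tested.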

How the data were processed

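Biotin-labelled RNA of 18 cotyledon samples was measured on 18 Affymetrix arrays, 1 sample per array. For each array the authors deposited a value per probe set, made with Affymetrix Expression Console according to the submitters' processing notes. Background correction, normalization and the program's version were not stated in the labels or headers. The values were used as log2 signal, as the deposited values run from 0.34 to 14.19, and the log base is inferred. Replicate 1 was dimmer throughout, with array medians of at most 5.46 where those of replicates 2 and 3 were at least 5.91. Precision is limited by the number of arrays.

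Of 38408 probe sets, the platform table lists 17481, 16722 of them with 1 gene, 759 with several and 20927 not listed; 16574 were matched to a TAIR10.1 locus. A gene is plastid-encoded by its locus tag, and its probe set with the highest mean would stand for it, though each had 1. The members, gene lists and transcription units were chosen with earlier results of these data known. Any member may be named; array values are given for up to 8 called genes per class with the lowest adjusted p in WT, the highest positive and the 4 smallest fold changes per class, up to 5 genes with the lowest unadjusted p per mutant comparison, and genes added for their role (rpl32, psbT, rbcL, matK). From each nuclear list up to 4 genes are named.

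The fit covered all probe sets and used lmFit and eBayes of limma 3.58.1 under R 4.3.3 (6 group means, 12 residual degrees of freedom), with 11 contrasts adjusted by the Benjamini-Hochberg method and called at an adjusted p below 0.05; the fit was tested on simulated data. Summaries used pandas 2.3.3 and figures matplotlib 3.10.9 in Python 3.11.15. A correlation across genes is a description. Alternatives were the replicate number as a block, replicates 2 and 3 alone, quantile normalization with and without the block, median centring, a filter on dim probe sets (31265 kept), only the groups compared, eBayes with trend and robust settings, the mean of a gene's probe sets (identical here) and each array left out. Values within each replicate number were added after the data were seen. Deviations of same-numbered arrays from their group means correlated at 0.168 or more in every pair of nearly every contrast. The exception was bes1-1 versus WT at 0 h (0.498, 0.0106 and 0.0925), for which pairing was not shown. Deviations within a group cancel, so an offset of replicate 1 shared by the groups also makes those of replicates 2 and 3 correlate. This check therefore cannot show that the numbers 2 and 3 pair samples, and the block may take up the dimmer replicate 1 alone. A mitochondrial gene list matched no locus and was not analysed here.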

Additional observations from a re-analysis of the deposited data

How the results depend on the processing

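Photosynthesis genes called lower in the WT induction numbered 8, against 18 after median centring, 14 after quantile normalization, 20 after quantile normalization with the replicate block, 31 with the replicate block and 20 within replicates 2 and 3. In bes1-1 they numbered 7, against 26, 22, 30, 31 and 18, and 3 in a fit of only the groups compared; in bes1-3 they numbered 10, against 25, 23, 29, 33 and 21, and 5 in that fit. Gene expression genes in bes1-1 numbered 10, against 16 after median centring, 17 after quantile normalization with the block, 17 with the replicate block and 5 in the fit of only the groups compared; in bes1-3 they numbered 11, against 17 with the block and 7 in that fit. The cause was not tested; the small fits have fewer arrays. The 13 of WT stayed within 1.5 times under every setting tried. Median centring shifted fold changes of all probe sets by -0.28 in the bes1-1 and -0.17 in the bes1-3 induction, by -0.12 between bes1-1 and WT at 72 h and by -0.19 in the bes1-1 difference in induction. The class difference in median fold change was 0.529 in WT and 0.47 after quantile normalization with or without the block; in bes1-3 it was 0.471, against 0.402 after quantile normalization with or without the block and 0.354 within replicates 2 and 3. Between bes1-1 and WT at 72 h, quantile normalization with the replicate block called 1 gene, ccsA, at 0.39; the block changed no other call of a plastid-encoded gene in a comparison with or between mutants.

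Leaving out each array gave 6 to 8 photosynthesis and 9 to 12 gene expression genes in WT, 3 to 8 and 8 to 10 in bes1-1, 7 to 10 and 8 to 12 in bes1-3, and 0 in every comparison with or between mutants, including the differences in induction. Class differences were 0.495 to 0.558 in WT, 0.326 to 0.395 in bes1-1 and 0.358 to 0.447 in bes1-3. Within replicates 1, 2 and 3 taken singly, an alternative chosen after seeing the data, they were 0.518, 0.5105 and 0.542 in WT, 0.293, 0.426 and 0.504 in bes1-1 and 0.368, 0.411 and 0.340 in bes1-3. Signal over background was not analysed here.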
